A study of Homo sapiens with 9 samples.

Results

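The genes described here are 10 components of the cytosolic heat shock system: the HSP70 genes HSPA8, HSPA1A, HSPA1B and HSPA6, the HSP70 partners HSPH1, DNAJB1 and BAG3, the HSP90 gene HSP90AA1, the small heat shock gene HSPB1, and HSF1, which encodes the transcription factor of the heat shock response. They were chosen by symbol among the GENCODE entries of a count table with 112171 features. Each symbol matched 1 entry, and all 10 were among the 22353 features with enough counts to be tested. The table covers PANC-1, an established human cell line from a pancreatic carcinoma, in 3 groups of 3 libraries. Medium was replaced with medium holding rakicidin A (42 nM), a cyclic lipodepsipeptide made by bacteria, with BE-43547A1 at 41 nM, or with DMSO, the solvent control, at 0.04%, and all groups were then held under hypoxia for 12 h. The amount of DMSO that accompanied the compounds is not given in the labels, no group was kept in normal oxygen, and the labels do not say whether replicate libraries are separate cultures. The p-values therefore set differences between groups against the scatter of these libraries alone, and that scatter may be technical.

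Heat shock proteins keep other proteins folded. HSP70 proteins bind unfolded stretches in a cycle driven by ATP, in which J-domain proteins such as DNAJB1 deliver the client and exchange factors such as HSPH1 and BAG3 release it, and HSP90 takes over a set of clients such as kinases and steroid receptors. HSF1 is held inactive by chaperones in resting cells, and unfolded protein in the cytosol frees it to form trimers that bind heat shock elements, arrays of inverted GAA units. Its activity is set largely after translation, so the level of HSF1 mRNA is not a measure of that activity. HSPA8 is made constitutively, whereas HSPA1A, HSPA1B and HSPA6 are the classical heat-inducible HSP70 genes.

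The elements that define the system were looked up in the RefSeq promoter windows (build GRCh38.p14, 250 bases before to 50 after each start, 300 bases in all), which hold entries for 9 of the 10 genes. The motifs searched were GAANNTTC and TTCNNGAA, each its own reverse complement, and their extensions to 3 units, GAANNTTCNNGAA and TTCNNGAANNTTC, which are reverse complements of each other and contain both shorter motifs. Of 35114 windows, 6.77% held the first, 7.74% the second and 13.5% either of them, and 0.490% held an array of 3 units. A match was found for 7 of the 9 genes, and an array of 3 units for HSPA6, HSPA8 and HSP90AA1, while HSPH1 and BAG3 had none. Only exact letters inside these windows counted, so units with a changed base and elements farther away were missed. The search therefore cannot show that a gene lacks an element or has a weaker one. DNAJB1 is listed with 3 starts and HSP90AA1 with 2, and the matches shown belong to the second of each. These are the stretches of 30 bases with the matches that lie before a start, shown because they set the heat-inducible and constitutive HSP70 genes side by side; capitals mark the matched bases and each is read on the strand of its gene.
HSPA1A, chr6:31815426-31815455, plus strand: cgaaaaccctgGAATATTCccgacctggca
HSPA1B, chr6:31827622-31827651, plus strand: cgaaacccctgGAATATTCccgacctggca
HSPA6, chr1:161524349-161524378, plus strand: ccgatctgcccGAACCTTCtcccggggtca
HSPA6, chr1:161524457-161524486, plus strand: gcggaaaggTTCGCGAAAGTTCgcggcggc
HSPA8, chr11:123062346-123062375, minus strand: ggcgagcttGAAAGTTCCAGAAcgctgcgg
HSPA8, chr11:123062171-123062200, minus strand: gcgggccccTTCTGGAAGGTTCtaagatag
DNAJB1, chr19:14518456-14518485, minus strand: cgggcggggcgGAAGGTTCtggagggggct
DNAJB1, chr19:14518426-14518455, minus strand: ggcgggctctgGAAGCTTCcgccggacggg
HSP90AA1, chr14:102087104-102087133, minus strand: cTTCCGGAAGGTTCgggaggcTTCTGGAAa
HSPB1, chr7:76302480-76302509, plus strand: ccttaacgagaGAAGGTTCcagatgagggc

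The array of HSPA8 nearest to its start ran from position -55 to -43, counted back from -1 at the base before the start, and its other array from -230 to -218. Annotated exons of the same gene in GENCODE v29 reach into both stretches of HSPA8 and that of HSP90AA1. The element of HSPA1A lay at -106 to -99 and that of HSPA1B at -105 to -98, and both hold the same letters. The genes are near copies: their coding sequences in GENCODE v29 differ at 4 of 1923 bases (99.8% identity), against 80.9% identity between HSPA1A and HSPA6 and 74.1% between HSPA1A and HSPA8. Reads of HSPA1A and HSPA1B can therefore be assigned only where the genes differ, and their separate values are uncertain. Reads that match both genes equally may have been left out of the counts. The levels of both may then be understated, also when summed, which was not tested. A motif match describes these letters and does not show that HSF1 was bound.

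The libraries held 27696394 to 30596594 counts on features in DMSO, 26203326 to 34870860 under rakicidin A and 39807220 to 45048999 under BE-43547A1. Levels are CPM, in which a gene's count is divided by the library total and multiplied up to a common total, with library totals adjusted by TMM, a method that centres most genes on no change. With total counts alone in its place, the median of all features moved by -0.36 on the log2 scale for rakicidin A against DMSO, by -0.24 for BE-43547A1 against DMSO and by -0.12 between the compounds, so the sign of a small difference is relative to the scaling. The DMSO library of replicate 3 differed from its group in abundant transcripts, with the nuclear RNA MALAT1 at 8863 CPM against 4915 and 4994, and member results whose call it decides or whose value it moves are given with and without it. Of the listed epithelial and ductal markers, the keratins KRT8, KRT18 and KRT19 lay at 729 to 1347 CPM in all libraries. Lower levels were found for the other markers of that list, the keratin KRT7 (4.67 to 6.86 CPM), CDH1 (4.50 to 8.27) and EPCAM (13.9 to 19.9). The summed markers of acinar cells, endocrine cells and endothelium stayed below 0.1 CPM. Summed stromal markers lay at 9.74 to 13.8 CPM in DMSO, 5.67 to 7.42 with rakicidin A and 7.25 to 9.05 with BE-43547A1, and summed leukocyte markers, of which PTPRC did not exceed 0.0740 CPM and CD3E was at 0, at 1.53 to 1.82, 1.60 to 2.06 and 2.77 to 3.46, and their part in the results was not tested. Counts give shares of the sequenced RNA, so fewer cells of a type and less RNA per cell cannot be told apart.

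In DMSO the members covered a wide range of levels per length, in CPM per kilobase of merged exons in GENCODE v29 (mean ± SD, n = 3 libraries). HSPA8 led with 672 ± 51.8, followed by HSP90AA1 with 145 ± 21.1. HSPA1A (32.1 ± 2.22), HSPH1 (27.8 ± 0.489), BAG3 (27.5 ± 7.05), HSPA1B (23.0 ± 2.95), HSPB1 (20.1 ± 4.94) and DNAJB1 (19.996 ± 0.921) formed a middle group. Among neighbours in that order, HSPH1 and BAG3, BAG3 and HSPA1B, HSPA1B and HSPB1, and HSPB1 and DNAJB1 overlapped between libraries. HSF1 stood at 7.94 ± 0.712, and HSPA6 was nearly silent at 0.304 ± 0.0837. With rakicidin A the means, in the same unit, were 215 for HSPA8, 106 for HSP90AA1, 44.7 for BAG3, 30.4 for DNAJB1, 29.3 for HSPH1, 16.0 for HSPB1, 12.2 for HSPA1A, 11.8 for HSPA1B, 9.45 for HSF1 and 0.160 for HSPA6, so HSPA1A moved from the third place to the seventh; among neighbours DNAJB1 overlapped HSPH1, and HSPA1A overlapped HSPA1B. With BE-43547A1 they were 428 for HSPA8, 143 for HSP90AA1, 51.1 for DNAJB1, 48.7 for BAG3, 47.7 for HSPA1A, 38.4 for HSPA1B, 37.2 for HSPH1, 24.5 for HSPB1, 10.7 for HSF1 and 0.845 for HSPA6, so DNAJB1 moved from the eighth place to a group with BAG3, HSPA1A, HSPA1B and HSPH1 in which each neighbour overlapped the next. Merged exons are longer than a single transcript for genes with several isoforms, so these levels understate such genes. The levels and places of HSPA1A and HSPA1B may also be too low, where reads that match both were left out.

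Against DMSO, the compounds divided the system. Under rakicidin A the HSP70 genes, HSP90AA1 and HSPB1 fell while DNAJB1, BAG3 and HSF1 rose. With BE-43547A1 the inducible HSP70 genes, their partners, HSPB1 and HSF1 rose and HSPA8 fell. The calls of HSPB1 with either compound and of HSPA6 with rakicidin A were lost in some fits with 1 library left out. The rise of HSF1 with rakicidin A turned to -0.11 with total counts alone (edgeR adjusted p = 0.162). By edgeR's quasi-likelihood test at a Benjamini-Hochberg adjusted p below 0.05 over all features, 3 members were higher and 6 lower under rakicidin A, where 31.9% of all features tested were higher, 32.7% lower and 64.7% changed. Under BE-43547A1, 8 members were higher and 1 lower, against 35.3% higher, 35.1% lower and 70.4% changed among all features. Calls were so frequent that the share of members called in either direction, 9 of 10 in each comparison, says little by itself. The median log2 fold change of the members was -0.39 under rakicidin A and 0.50 under BE-43547A1, where that of all features was -0.02 and -0.0003. The CPM of the groups did not overlap for 9 of 10 members under rakicidin A, as for 67.5% of all features, and for 8 of 10 under BE-43547A1, as for 71.6%. Both comparisons use the same 3 DMSO libraries. With total counts alone 2 members were higher and 7 lower under rakicidin A (all features 4480 and 11380, against 7141 and 7314 with TMM), and 7 and 2 under BE-43547A1 (5951 and 10450, against 7898 and 7840).

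**Figure D1:**
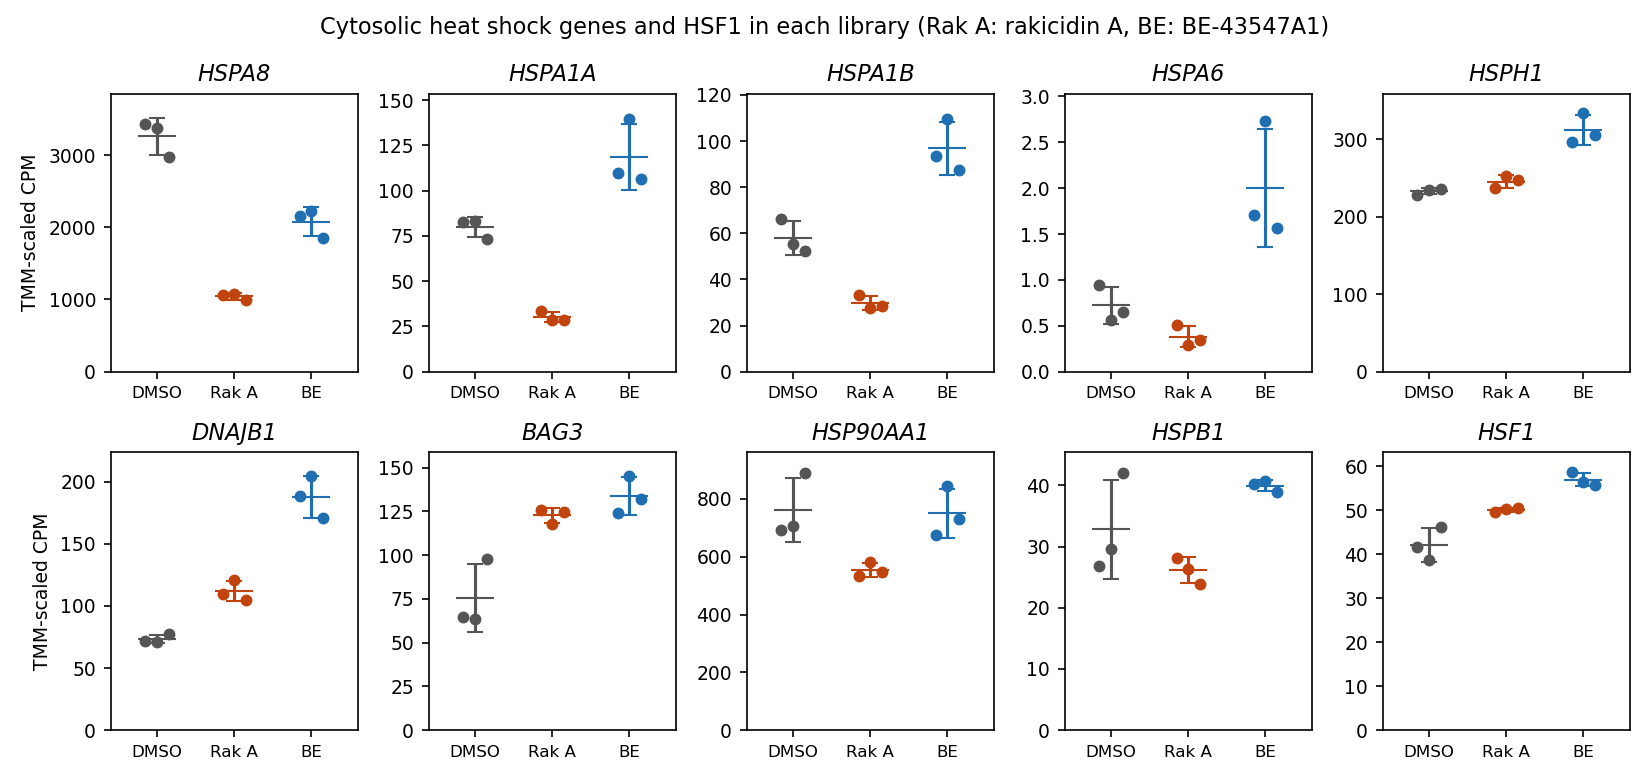
TMM-scaled CPM of the 10 genes in each library; points are libraries, horizontal bars the group mean and error bars 1 SD (n = 3). HSPA8 lies below DMSO with either compound, while HSPA1A, HSPA1B and HSPA6 lie below DMSO under rakicidin A and above it under BE-43547A1.

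HSPA8, the constitutive HSP70 that serves most of the folding in resting cells, had 3428, 3374 and 2968 CPM in the DMSO libraries, 1059.8, 1075 and 993 under rakicidin A and 2161, 2221 and 1851 under BE-43547A1. The 3 groups did not overlap, with rakicidin A lowest. It fell by 1.64 ± 0.07 on the log2 scale with rakicidin A (± SE, edgeR adjusted p = 3.00e-13), a level 3.12-fold lower, and by 0.65 ± 0.07 with BE-43547A1 (adjusted p = 1.33e-07), 1.57-fold lower. HSPA8 held most of the members' counts in DMSO, and the 10 members together took 0.517 to 0.538% of all feature counts in DMSO, 0.191 to 0.205% under rakicidin A and 0.335 to 0.397% under BE-43547A1. HSPA8 has many pseudogenes, whose 17 rows held 3.47 to 5.19% of its count, mostly in HSPA8P5, and reads may be shared with them. HSPA8P5 fell as well (-1.67 and -0.84), and the ratio of HSPA8 to HSPA8P5 counts lay at 21.99 to 31.1 in DMSO, 24.0 to 26.1 under rakicidin A and 24.3 to 35.0 under BE-43547A1, with overlap. The snoRNA genes SNORD14C, SNORD14D and SNORD14E lie within HSPA8 in GENCODE v29.

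The inducible HSP70 genes went in opposite directions with the compounds. HSPA1A, the main heat-inducible HSP70, had 82.7, 83.2 and 73.4 CPM in DMSO, 33.6, 28.5 and 28.6 under rakicidin A and 109.8, 139 and 106 under BE-43547A1. All rakicidin A libraries lay below and all BE-43547A1 libraries above the DMSO libraries. The log2 fold change was -1.40 ± 0.09 with rakicidin A (edgeR adjusted p = 2.33e-10) and 0.57 ± 0.09 with BE-43547A1 (adjusted p = 1.41e-05). Its near copy HSPA1B had 66.4, 55.5 and 52.1 CPM in DMSO, 33.2, 27.8 and 28.5 under rakicidin A and 93.3, 109.6 and 87.4 under BE-43547A1. Here too the groups were in the same order without overlap, with changes of -0.96 ± 0.10 (adjusted p = 7.12e-08) and 0.74 ± 0.09 (adjusted p = 9.38e-07).

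HSPA6, a strictly inducible HSP70 gene found in humans but not in mice, stayed very low in every group. Its counts were 31, 18 and 23 in DMSO, 14, 9 and 8 under rakicidin A and 76, 111 and 60 under BE-43547A1. That is 0.722 ± 0.199, 0.380 ± 0.115 and 2.00 ± 0.640 CPM (mean ± SD, n = 3 libraries), so even the highest group remained far under the constitutive HSPA8. HSPA6 rose by 1.47 ± 0.26 with BE-43547A1 (edgeR adjusted p = 5.83e-05). The fall of 0.93 ± 0.37 with rakicidin A (adjusted p = 0.0344) rested on few counts: leaving out DMSO replicate 1 ended the call (-0.69, adjusted p = 0.148), as did leaving out the rakicidin A library of replicate 2 (-0.72, adjusted p = 0.15) or replicate 3 (-0.86, adjusted p = 0.0877), and it did not pass by limma-voom (-0.90, adjusted p = 0.0601).

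Ratios of counts within a library do not depend on the scaling. There were 23.0, 24.3 and 23.6 counts of HSPA8 per count of HSPA1A plus HSPA1B in DMSO, 15.9, 19.1 and 17.4 under rakicidin A and 10.6, 8.92 and 9.55 under BE-43547A1. The 3 groups did not overlap, so the constitutive gene lost ground to the inducible pair with both compounds, also where all of these genes fell. The ratio itself may be too high in every group, where reads that match both genes of the pair were left out. The ratio of HSPA1A to HSPA1B was 1.25, 1.501 and 1.41 in DMSO, 1.01, 1.03 and 1.00 under rakicidin A and 1.18, 1.27 and 1.22 under BE-43547A1. The rakicidin A libraries lay below all others and the remaining groups overlapped. Whether the near identity of the genes moved this ratio through the assignment of reads was not tested. With the counts of both summed, the change was -1.20 with rakicidin A and 0.64 with BE-43547A1.

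**Figure D2:**
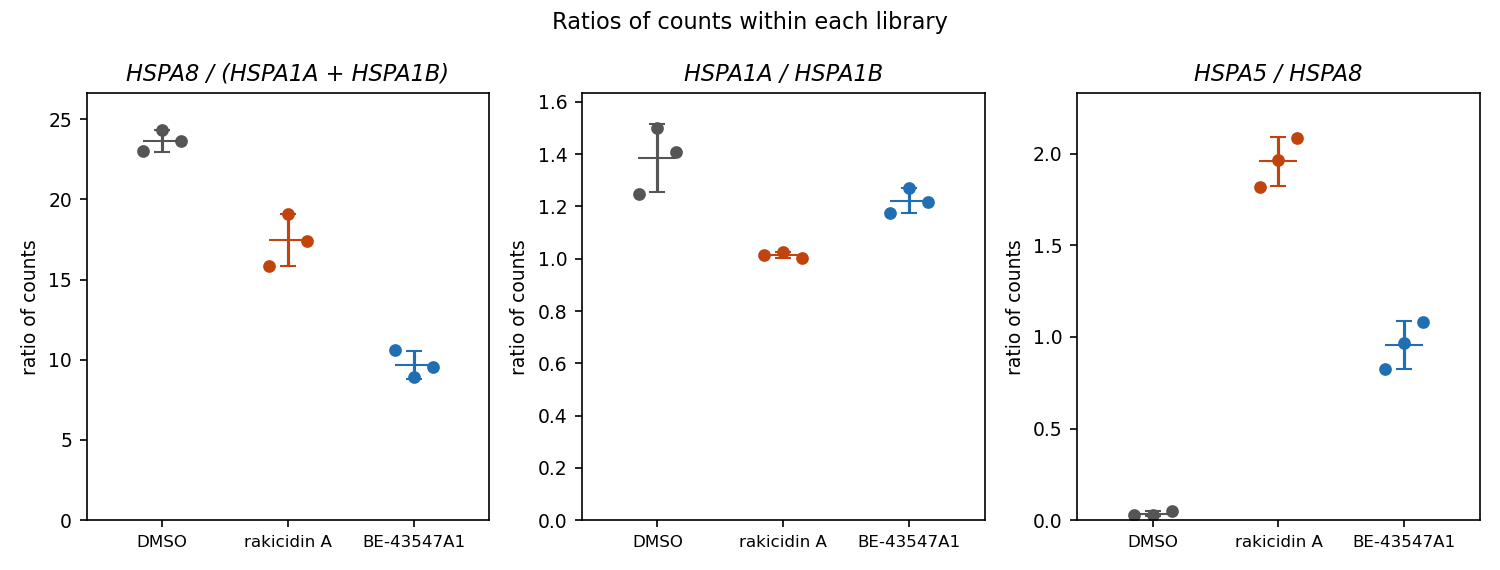
Ratios of counts within each library for HSPA8 over HSPA1A plus HSPA1B (left), HSPA1A over HSPA1B (middle) and HSPA5 over HSPA8 (right); points are libraries, horizontal bars the mean and error bars 1 SD (n = 3). The left ratio falls from 23.0 to 24.3 in DMSO to 8.92 to 10.6 under BE-43547A1, and the right ratio rises from below 0.06 in DMSO to 1.82 to 2.09 under rakicidin A.

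Among the partners of HSP70, DNAJB1 and BAG3 rose with both compounds. DNAJB1, the J-domain protein that stimulates HSP70 and helps it return HSF1 to rest, had 71.7, 71.3 and 77.3 CPM in DMSO, 109.2, 121 and 105 under rakicidin A and 188, 204 and 171 under BE-43547A1. The 3 groups did not overlap. The rise was 0.60 ± 0.07 with rakicidin A (edgeR adjusted p = 4.42e-07; 0.25 with total counts alone, adjusted p = 0.00500) and 1.35 ± 0.07 with BE-43547A1 (adjusted p = 4.82e-12), a level 2.56-fold higher. BAG3, an exchange factor that also links HSP70 clients to selective autophagy, had 64.9, 63.7 and 97.8 CPM in DMSO, 126, 118 and 125 under rakicidin A and 124, 145 and 132 under BE-43547A1. All treated libraries lay above the DMSO libraries, of which replicate 3 was the highest. The changes were 0.70 ± 0.11 (adjusted p = 2.90e-05) and 0.83 ± 0.11 (adjusted p = 3.44e-06), and 0.93 and 1.05 without DMSO replicate 3.

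HSPH1, the HSP110 protein that acts as an exchange factor and disaggregase with HSP70, had 228, 235 and 236 CPM in DMSO, 237, 253 and 247 under rakicidin A and 296, 334 and 306 under BE-43547A1. With BE-43547A1 it rose by 0.42 ± 0.06 (edgeR adjusted p = 2.30e-06). With rakicidin A the difference of 0.07 ± 0.06 did not pass (adjusted p = 0.257, 95% interval -0.04 to 0.19), although the groups stood just clear of each other. That sign rests on the scaling, since with total counts alone HSPH1 fell by 0.28 (adjusted p = 0.000143).

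HSP90AA1, the stress-responsive cytosolic HSP90, had 692, 706 and 889.7 CPM in DMSO, 534, 582 and 547 under rakicidin A and 675, 843 and 732 under BE-43547A1. DMSO replicate 3 was again the highest of its group. HSP90AA1 fell with rakicidin A by 0.46 ± 0.09 (edgeR adjusted p = 0.000155), and by 0.33 without DMSO replicate 3 (adjusted p = 0.000177). With BE-43547A1 the groups overlapped and the difference of -0.02 ± 0.09 did not pass (adjusted p = 0.821, 95% interval -0.21 to 0.16), with -0.26 under total counts alone (adjusted p = 0.0112). In the paralogue HSP90AB1, which is made constitutively, the values were 1693 ± 158 CPM in DMSO, 1453 ± 33.1 under rakicidin A (-0.22 ± 0.07, adjusted p = 0.00666) and 1816 ± 126 under BE-43547A1 (0.10 ± 0.07, adjusted p = 0.178; 0.16 without DMSO replicate 3, adjusted p = 0.0149).

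HSPB1, the small heat shock protein HSP27, which holds unfolding proteins for refolding and binds actin, had 26.8, 29.6 and 41.98 CPM in DMSO, 28.1, 26.3 and 23.9 under rakicidin A and 40.3, 40.7 and 38.9 under BE-43547A1. DMSO replicate 3 lay above all treated libraries, and the DMSO range overlapped both treated groups. The fall of 0.33 ± 0.12 with rakicidin A (edgeR adjusted p = 0.0202) was -0.11 without DMSO replicate 3 (adjusted p = 0.204), -0.32 without rakicidin A replicate 2 (adjusted p = 0.0599), -0.26 without rakicidin A replicate 3 (adjusted p = 0.108) and -0.31 in the 6 libraries of the comparison (adjusted p = 0.0598). The rise of 0.28 ± 0.11 with BE-43547A1 (adjusted p = 0.0323) was 0.49 without DMSO replicate 3 (adjusted p = 2.16e-06), did not pass without DMSO replicate 1 (0.15, adjusted p = 0.21), DMSO replicate 2 (0.21, adjusted p = 0.133), BE-43547A1 replicate 1 (0.29, adjusted p = 0.0544) or BE-43547A1 replicate 2 (0.29, adjusted p = 0.0617), and was 0.05 with total counts alone (adjusted p = 0.737).

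HSF1 itself was higher with both compounds. It had 41.6, 38.7 and 46.1 CPM in DMSO, 49.7, 50.2 and 50.6 under rakicidin A and 58.7, 56.5 and 55.8 under BE-43547A1. The 3 groups did not overlap, in the order DMSO, rakicidin A, BE-43547A1. The rise was 0.25 ± 0.07 with rakicidin A (edgeR adjusted p = 0.00252), but -0.11 with total counts alone (adjusted p = 0.162), and 0.44 ± 0.06 with BE-43547A1 (adjusted p = 7.72e-06), 0.20 with total counts alone (adjusted p = 0.0119). In GENCODE v29 the exons of HSF1 share 139 bases with DGAT1 and 133 with AC233992.1 on the opposite strand. Those of DNAJB1 share 211 bases with TECR and those of HSP90AA1 197 with WDR20, also on the opposite strand. The strand setting of the counting is not given in the sources used here.

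**Figure D3:**
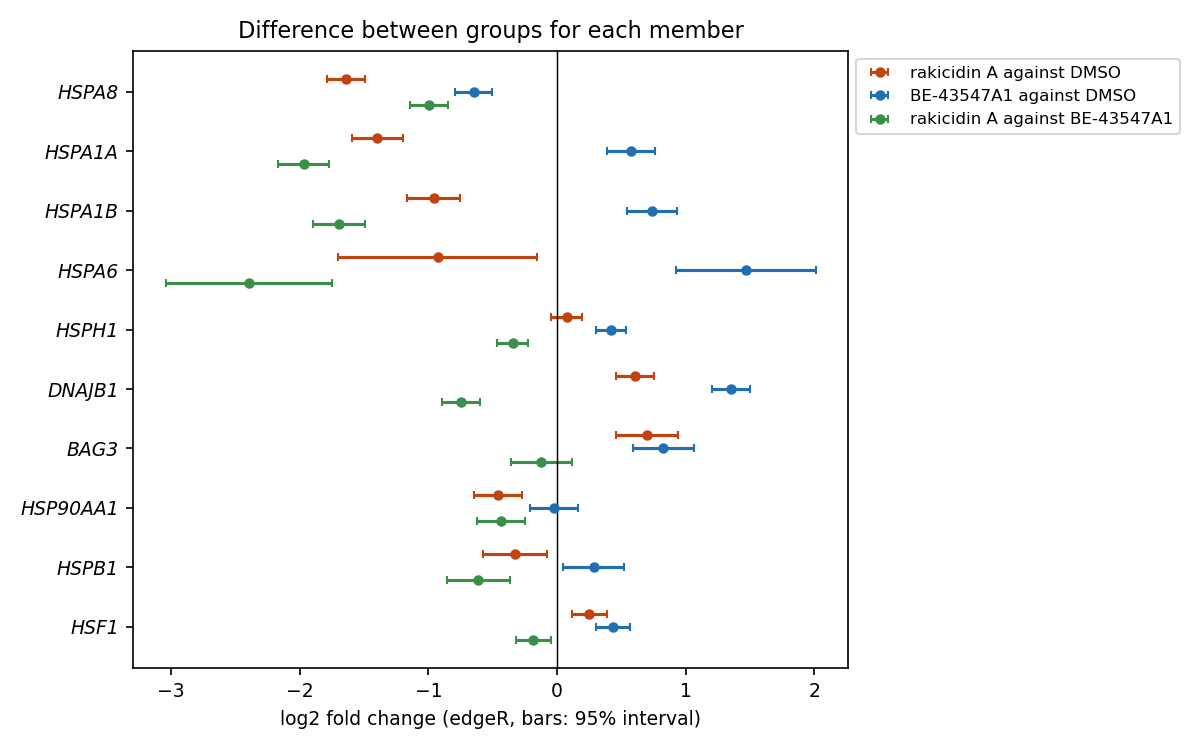
Log2 fold change of each member in the 3 comparisons by edgeR; points are estimates and bars 95% intervals. HSPA1A, HSPA1B and HSPA6 lie left of 0 for rakicidin A against DMSO and right of 0 for BE-43547A1 against DMSO, and every point of the direct comparison lies left of 0, with BAG3 alone spanning it.

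Set directly against each other, at doses of 42 and 41 nM that differ slightly, rakicidin A left lower levels than BE-43547A1. Of the 10 members 9 were lower and 0 higher by edgeR, where 22.5% of all features tested were lower, 24.1% higher and 46.6% differed. At an unadjusted p below 0.05, and by DESeq2 and limma-voom, the counts were also 9 lower and 0 higher. The inducible HSP70 genes differed most, HSPA6 by -2.40 ± 0.31 (edgeR adjusted p = 4.32e-06), HSPA1A by -1.97 ± 0.09 (adjusted p = 5.42e-11), a level 3.92-fold lower, and HSPA1B by -1.70 ± 0.10 (adjusted p = 3.87e-10). HSPA8 differed by -0.99 ± 0.07 (adjusted p = 3.78e-09), DNAJB1 by -0.75 ± 0.07 (adjusted p = 9.05e-08) and HSPB1 by -0.61 ± 0.12 (adjusted p = 0.000277). HSP90AA1 (-0.44 ± 0.09) and HSPH1 (-0.35 ± 0.06) differed less. For BAG3 the difference of -0.12 ± 0.11 did not pass (adjusted p = 0.389), with a 95% interval of -0.36 to 0.11. HSF1 passed by -0.18 ± 0.06 (adjusted p = 0.0245), but not without rakicidin A replicate 1 (-0.17, adjusted p = 0.0917), 2 (-0.18, 0.0774) or 3 (-0.18, 0.0752), nor without BE-43547A1 replicate 1 (-0.17, 0.0764) or 2 (-0.19, 0.0568). The groups did not overlap for 9 of 10 members, as for 57.6% of all features.

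The rest of the cytosolic chaperone system, 62 further genes of which 53 were tested, showed no common direction. With rakicidin A 20 were higher and 16 lower (median 0.02), and with BE-43547A1 14 were higher and 22 lower (median -0.08). With total counts alone these became 7 and 39, and 9 and 35, so the balance follows the scaling. Among all features tested 31.9% were higher and 32.7% lower with rakicidin A, and 35.3% and 35.1% with BE-43547A1. The counts of the smaller lists below are to be read beside these shares. Within the HSP70 family and its exchange factors 5 of 12 rose and 4 fell with rakicidin A (1 and 9 with total counts alone), and 3 rose and 8 fell with BE-43547A1 (2 and 9). HSPA1L, a testis-enriched HSP70 that neighbours HSPA1A, fell from 5.67 ± 0.325 CPM to 1.08 ± 0.123 and 1.60 ± 0.116 (mean ± SD, n = 3 libraries; edgeR adjusted p = 1.34e-10 and 8.41e-10). HSPA2 fell from 16.1 ± 0.977 CPM to 5.19 ± 0.518 and 8.99 ± 0.525, and HSPA4L, of the HSP110 group, by 0.54 with each compound. HSPA1L and HSPA2 thus fell also with BE-43547A1, where HSPA1A, HSPA1B and HSPA6 rose.

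Of 12 J-domain genes, 8 were higher and 2 lower under rakicidin A (5 and 5 with total counts alone), and 6 higher and 3 lower under BE-43547A1 (5 and 6), so the balance again follows the scaling. DNAJB5 rose from 4.35 ± 0.743 CPM to 12.8 ± 0.773 and 12.5 ± 0.743 (mean ± SD, n = 3 libraries), DNAJB4 from 34.4 ± 3.65 to 75.6 ± 2.16 and 75.6 ± 3.84, and DNAJB2, a neuronal J-domain protein, from 34.3 ± 1.85 to 83.9 ± 5.55 and 67.9 ± 0.634. These 3 paralogues of DNAJB1 rose with either scaling. DNAJA1 and DNAJA4 were the 2 that fell with rakicidin A (-0.39 and -0.83). Among HSP90AB1 and 13 cochaperones of HSP90, 3 of these 14 rose and 6, HSP90AB1 among them, fell with rakicidin A (12 fell with total counts alone), and 3 rose and 4 fell with BE-43547A1 (1 and 9). SUGT1 fell by 0.26 and 0.59 and STUB1, the ubiquitin ligase CHIP, by 0.57 and 0.16. CDC37, which brings kinases to HSP90, rose by 0.18 and 0.49, the first turning to -0.18 with total counts alone.

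Of 9 further small heat shock genes, 3 had enough counts to be tested. HSPB8, which forms a complex with BAG3, rose from 1.10 ± 0.0596 CPM to 14.2 ± 1.22 with rakicidin A and 14.0 ± 1.29 with BE-43547A1 (mean ± SD, n = 3 libraries; 3.68 ± 0.13 and 3.66 ± 0.13, edgeR adjusted p = 1.72e-14 and 1.61e-14). HSPB11, which despite its symbol is a component of intraflagellar transport, fell by 0.82 and 0.44. CRYAA, an alpha crystallin of the eye lens at 0.363 CPM in DMSO, fell by 0.97 with rakicidin A (adjusted p = 0.0496), a call lost without DMSO replicate 3 (adjusted p = 0.0595). Other genes of the HSF family and its regulators fell: HSF4 by 0.77 and 0.84 and HSBP1, which binds HSF1 trimers, by 0.33 and 0.22, while HSF2 and HSF2BP fell with BE-43547A1 (-0.25 and -0.46) and did not pass with rakicidin A (-0.10 and -0.19). HSF2 passed with rakicidin A without DMSO replicate 3 (-0.16, edgeR adjusted p = 0.0266).

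Of 8 subunits of the chaperonin CCT, which folds actin and tubulin, 3 rose with rakicidin A, CCT2 (0.30), CCT6A (0.18) and CCT8 (0.18), and 5 did not pass, but 7 fell with total counts alone. With BE-43547A1 CCT8 rose (0.16) and CCT4 (-0.16) and CCT6A (-0.13) fell, and 5 fell with total counts alone. Without DMSO replicate 3 CCT8 passed with neither compound (0.09, edgeR adjusted p = 0.105, and 0.06, adjusted p = 0.256), while CCT3 passed as lower with both (-0.14, adjusted p = 0.0131, and -0.15, adjusted p = 0.00664) and CCT5 as lower with BE-43547A1 (-0.15, adjusted p = 0.00612). A list of 9 other genes drawn up as induced by heat or related stress held 7 higher and 2 lower with either compound (median 0.85 and 1.01; 5 and 2, then 7 and 2, with total counts alone). HMOX1, heme oxygenase, rose from 54.4 ± 1.12 to 127 ± 7.44 and 137 ± 5.71 CPM (mean ± SD, n = 3 libraries), by 1.22 and 1.33 on the log2 scale. IER5L, at -2.53 and -2.02, and SERPINH1, a collagen chaperone of the endoplasmic reticulum (ER), at -0.70 and -0.48, were the 2 that fell.

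The paralogues of HSP70 and HSP90 in the ER rose with both compounds. HSPA5, the HSP70 of the ER lumen, rose from 114 ± 33.4 CPM to 2037 ± 99.8 with rakicidin A and 1975 ± 186 with BE-43547A1 (mean ± SD, n = 3 libraries; 4.16 ± 0.14 and 4.12 ± 0.14, edgeR adjusted p = 1.11e-14 and 1.35e-14). There were 0.0282, 0.0274 and 0.0513 counts of HSPA5 per count of HSPA8 in the DMSO libraries, 1.82, 1.97 and 2.09 under rakicidin A and 0.822, 0.965 and 1.08 under BE-43547A1. In all libraries of rakicidin A and in BE-43547A1 replicate 3, the ER gene thus had more counts than the cytosolic gene. These ratios are not adjusted for length, with merged exons of 3908 bases for HSPA5 and 4849 for HSPA8. HSP90B1, the HSP90 of the ER, rose by 2.86 ± 0.06 and 2.41 ± 0.06, DNAJB9, a J-domain protein of the ER, by 4.65 and 3.79, and all 10 ER genes listed rose with both compounds (medians 2.82 and 2.10; 10 and 9 rose with total counts alone). These ER genes were chosen with earlier results of these data known. Of all features tested, 31.9% were higher with rakicidin A and 35.3% with BE-43547A1. Between the compounds HSPA5 differed by 0.05 ± 0.13 (edgeR adjusted p = 0.795), where HSPA1A differed by -1.97. HSPA5 was the only listed ER gene that did not pass in that comparison. The other 9 were higher with rakicidin A (8 with total counts alone) and 0 were lower. The median of the list was 0.57, and 24.1% of all features tested were higher and 22.5% lower.

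Mitochondrial paralogues had smaller fold changes. HSPA9, the mitochondrial HSP70, rose from 943 ± 51.7 CPM to 2207 ± 38.4 and 1602 ± 85.6 (mean ± SD over 3 libraries), a rise of 1.23 ± 0.06 and 0.76 ± 0.06 on the log2 scale. GRPEL2, the exchange factor of the mitochondrial HSP70, rose by 1.58 and 0.64, and LONP1, a protease of the matrix, by 0.72 and 0.77. The mitochondrial HSP90, TRAP1, did not pass with rakicidin A (-0.07, edgeR adjusted p = 0.358) and was 0.15 with BE-43547A1 (adjusted p = 0.0445; -0.09 with total counts alone, adjusted p = 0.242). HSPD1, the chaperonin HSP60 and a known target of HSF1, did not pass with rakicidin A (-0.05, adjusted p = 0.397; -0.41 with total counts alone, adjusted p = 1.28e-06) and fell by 0.29 with BE-43547A1. HSPE1, the HSP10 partner of HSPD1, had 8.31 ± 0.303 CPM in DMSO, 5.54 ± 0.403 with rakicidin A and 10.6 ± 1.16 with BE-43547A1 (mean ± SD over 3 libraries). It fell by 0.59 ± 0.11 with rakicidin A (adjusted p = 0.000116) and rose by 0.35 ± 0.10 with BE-43547A1 (adjusted p = 0.00433; 0.11 with total counts alone, adjusted p = 0.333), and between the compounds it differed by -0.94 (adjusted p = 9.75e-07). Of the 10 mitochondrial genes listed 6 rose with each compound and 1 fell, HSPE1 with rakicidin A and HSPD1 with BE-43547A1 (6 rose and 4 fell, then 4 and 3, with total counts alone).

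**Figure D4:**
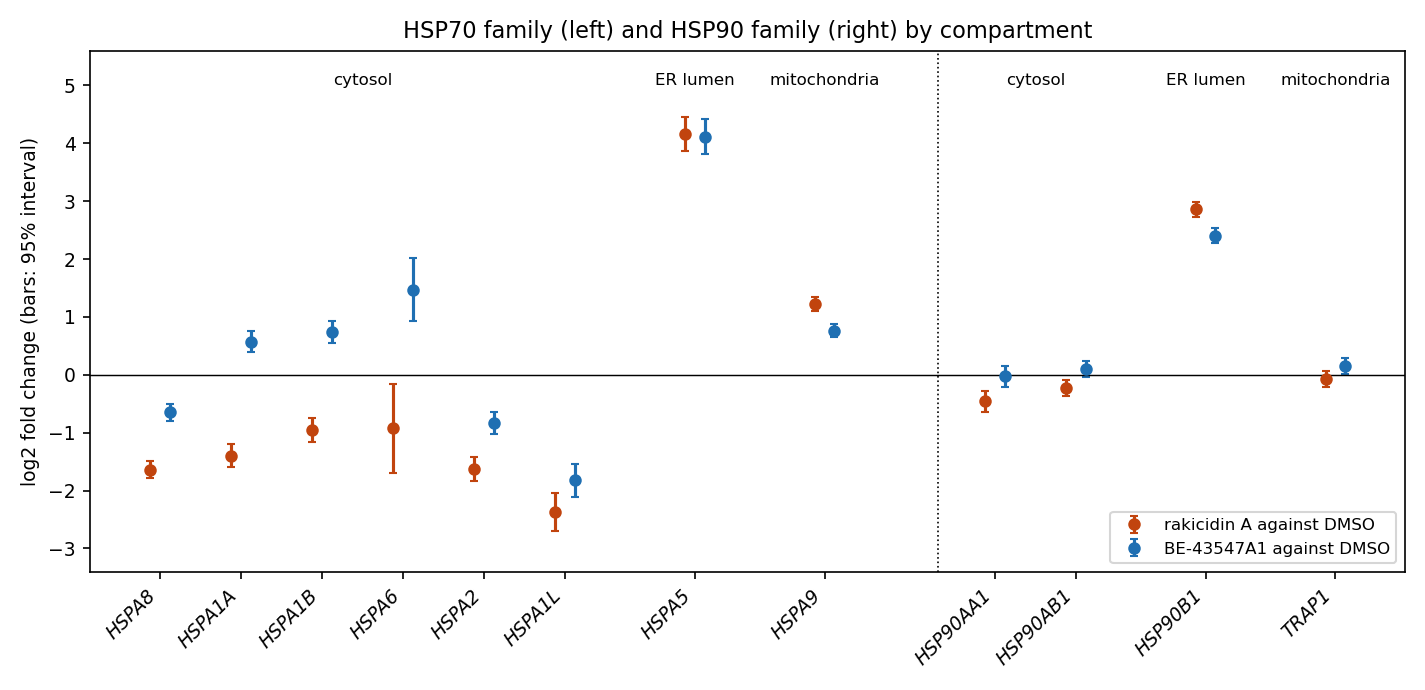
Log2 fold change against DMSO of HSP70 genes (left of the dotted line) and HSP90 genes (right) by the compartment of their protein; points are edgeR estimates and bars 95% intervals. HSPA5 and HSP90B1 of the ER lie at 2.41 to 4.16, while the cytosolic genes lie between -2.37 and 1.47.

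Across the 9 libraries, the 9067 GENCODE genes with a mean of at least 10 CPM were ranked by Pearson correlation of log CPM with 3 of the members, as a description of likeness that is set mainly by the differences between the 3 groups. Closest to HSPA8 were SUMF2 (r = 0.997), ATHL1 (r = 0.997) and MIR24-2 (r = 0.993), which also fell more with rakicidin A than with BE-43547A1 (-0.70 and -0.27, -0.77 and -0.30, -1.97 and -0.88). Closest to DNAJB1 were SIRT7 (r = 0.998), SPRY4 (r = 0.997) and the chemokine gene CXCL1 (r = 0.996), and closest to HSF1 were RPL28 (r = 0.992), ACTG1 (r = 0.990) and WBP2 (r = 0.988).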

How the data were processed

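Total RNA of PANC-1 cells was sequenced as paired ends of 76 bases, per the labels' protocols. The submitters' processing notes name TopHat2 and HTSeq and the builds GRCh37 and hg19; the sources used here do not give versions, settings or strand. The authors deposited raw counts per feature, without normalization. The counter's 5 summary lines were left out of totals and tests: of all counts with these lines, 16.4 to 20.8% were on no feature, 2.65 to 2.94% ambiguous and 19.1 to 22.4% not unique.

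Counts were fitted in R 4.3.3 with edgeR 4.0.16 (filterByExpr, TMM, quasi-likelihood, 1 mean per group over 9 libraries, 6 residual degrees of freedom). Adjusted p-values are Benjamini-Hochberg over all features tested, with a threshold of 0.05. Each SE is |log2 fold change| divided by √F. The 95% intervals use edgeR's total degrees of freedom, which add to the residual ones those gained by sharing the spread over features. Log CPM used a prior count of 2. Named genes were the 10 members, up to 3 genes per further list ranked by the product of their unadjusted p against DMSO for both compounds, compartment paralogues, directions held by 5 or fewer genes, and the 3 most alike genes for HSPA8, DNAJB1 and HSF1. HSP90AB1, HSPA8P5 and MALAT1 were named after their values were seen. A gene that this rule names is not reported here. The members and lists were chosen with earlier results of these data known.

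As alternatives, the fit was repeated with total counts alone, RLE size factors, DESeq2 1.42.0, limma-voom (limma 3.58.1), no filter, the 6 libraries compared, the replicate number as a block, HSPA1A and HSPA1B summed, GENCODE rows alone, and each library left out. The fit was also run on simulated counts in which few genes changed, with equal numbers up and down. That run does not test the scaling of data in which most features change, as here. The labels name no batch. Lengths, coding sequences and overlaps came from GENCODE v29 (GRCh38), and promoters from RefSeq. Proteins were not compared. Plots used matplotlib 3.10.9 (python 3.11.15).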

Additional observations from a re-analysis of the deposited data

How the results depend on the processing

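Of 540 member values under the alternatives, 515 kept their direction and side of the threshold, 18 no longer passed, 1 newly passed and 6 changed sign. With total counts alone HSPH1 (-0.28) and HSF1 (-0.11) turned negative for rakicidin A against DMSO. HSP90AA1 with BE-43547A1, which did not pass, turned to 0.00936 with GENCODE rows alone, 0.0937 without DMSO replicate 3, 0.0636 without BE-43547A1 replicate 1 and 0.00556 without BE-43547A1 replicate 3. Total counts alone gave 7 further cytosolic chaperone genes higher and 39 lower with rakicidin A, 9 higher and 35 lower with BE-43547A1, 2 members lower with BE-43547A1, and 4480 features higher and 11380 lower with rakicidin A; this scaling moves the median of all features. With 1 library left out, the members called were 3 higher and 4 to 6 lower with rakicidin A, 7 to 8 higher and 1 lower with BE-43547A1, and 8 to 9 lower between the compounds. With the replicate number as a block, the members' counts stayed at 3 higher and 6 lower with rakicidin A, 8 and 1 with BE-43547A1, and 0 and 9 between the compounds; no member changed its call, and the counts of further chaperone genes (22 and 15 with rakicidin A) and of all features (7116 and 7243) moved by less than 1.5 times. Same-numbered libraries did not deviate together (r from -0.06 to 0.12, other pairs -0.10 to 0.09), and 3 of 9 libraries correlated best with their own number, so the numbers were not taken as pairs. Depth limits HSPA6, with 8 to 111 counts per library.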
